A study of Mus musculus with 9 samples.

Results

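Macrophages in the wall of a vessel release growth factors that act on endothelial cells, smooth muscle cells and fibroblasts. Expression of 10 such genes, Vegfa, Vegfb, Pdgfa, Pdgfb, Pdgfc, Igf1, Tgfb1, Hbegf, Fgfr1 and Fgf13, was followed in bone marrow-derived macrophages (BMDMs) exposed to medium conditioned by adventitial fibroblasts. They were taken by symbol from a table of raw read counts for 53465 genes, where each symbol stood on 1 line, and all 10 passed the filter on low counts that left 11950 genes for testing. The question was which of these factors macrophages express more or less of when they receive the signals of diseased fibroblasts, those of control fibroblasts, or neither.

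The BMDMs came from the bone marrow of male wild-type C57BL/6 mice (substrain J according to the methods), whose age is not given in the sources used here, and were grown in medium with serum and CSF1 at 50 ng/ml in all groups. Of the 9 libraries, 3 were from untreated cells (UNX), 3 from cells given medium of control calf fibroblasts (CO-CM) and 3 from cells given medium of fibroblasts from calves with hypoxia-induced pulmonary hypertension (PH-CM). The fibroblasts were bovine and the macrophages murine, and each medium was a pool of several fibroblast populations, which makes the replicates repeats of the mouse culture only, and p-values measure the spread between these cultures and not between calves. The labels give the exposure both as 16 h and as 24 h, and the methods of the study give yet another time, so its length is uncertain. Untreated cells received no medium from fibroblasts of any kind, so UNX differs from the other groups in conditioned medium as such.

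VEGF-A acts on endothelial cells through the receptor Kdr, while VEGF-B binds Flt1 and neuropilin 1. PDGF chains pair into dimers that drive the division and migration of fibroblasts and smooth muscle cells, IGF-1 promotes growth and survival, and TGF-beta 1 is secreted in a latent form and, once released, induces matrix synthesis. HB-EGF is anchored in the membrane until it is shed and then binds the EGF receptor. Fgfr1 encodes a receptor, and Fgf13 an intracellular member of the FGF family that is not secreted in the classical way, so 8 of the 10 genes encode secreted or shed ligands.

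Libraries held between 62017933 and 84314201 counted reads, with UNX (62017933 to 84314201) spanning the other groups and CO-CM (68317274 to 73049365) deeper than PH-CM (63493877 to 66935070) in every library. The summed level of 8 macrophage markers was 11799.8 to 12594 CPM (counts scaled to library total with TMM factors) in UNX, 18985 to 19939 in CO-CM and 21429 to 23239 in PH-CM, so it moved with the treatments compared below. Lyz2 made up most of it, at means of 7240.2, 12794 and 15180.5 CPM. With PH-CM all 8 means were higher than in UNX. With CO-CM the means of Itgam (106 to 91.6), Fcgr1 (99.3 to 89.4) and Cd14 (308 to 174) were lower, and the others higher. Of 9 fibroblast markers, 7 passed the filter and summed to 199.9 to 252 CPM in UNX, 274 to 325 in CO-CM and 254 to 339 in PH-CM, led by Col1a1 and Col1a2. Endothelial markers summed to 33.1 to 43.9, 16.4 to 20.5 and 55.0 to 64.4 CPM, nearly all of it Kdr, with Cldn5 at 0 in every library. Markers of granulocytes, dendritic cells, lymphocytes and platelets did not pass the filter, and of the mast cell markers Kit alone did, at 0.290 CPM in PH-CM and 2.62 in UNX, with Cma1 and Mcpt4 at 0. The part of these shifts in the results below was not tested. The libraries labelled replicate 1 stood apart from the others of their group, with a chi-square per gene of 16.01 to 41.85 against them and 8.206 to 13.05 between the others, so calls of the 10 genes that change without them are given with the result, as are list counts that move by more than 1.5 times.

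PH-CM raised Vegfa and lowered Igf1, Pdgfb and Fgf13, relative to UNX as well as to CO-CM. Pdgfc, Pdgfa and Fgfr1 rose with both media. Hbegf was lower in CO-CM, and Vegfb and Igf1 were slightly higher there, by calls that were lost under some other settings given below. Vegfa and Pdgfb were called higher with CO-CM only under some other settings, among them the replicate number as a block. Tgfb1 stayed close to its untreated level with both media. Genes were called where the FDR (edgeR's quasi-likelihood test, Benjamini-Hochberg over the 11950 genes) did not exceed 0.05 and the change was 1.2-fold or more. With 3 libraries against 3, the smallest two-sided p of an exact permutation test is 0.1, and the calls therefore depend on edgeR's sharing of spread between genes.

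**Figure D1:**
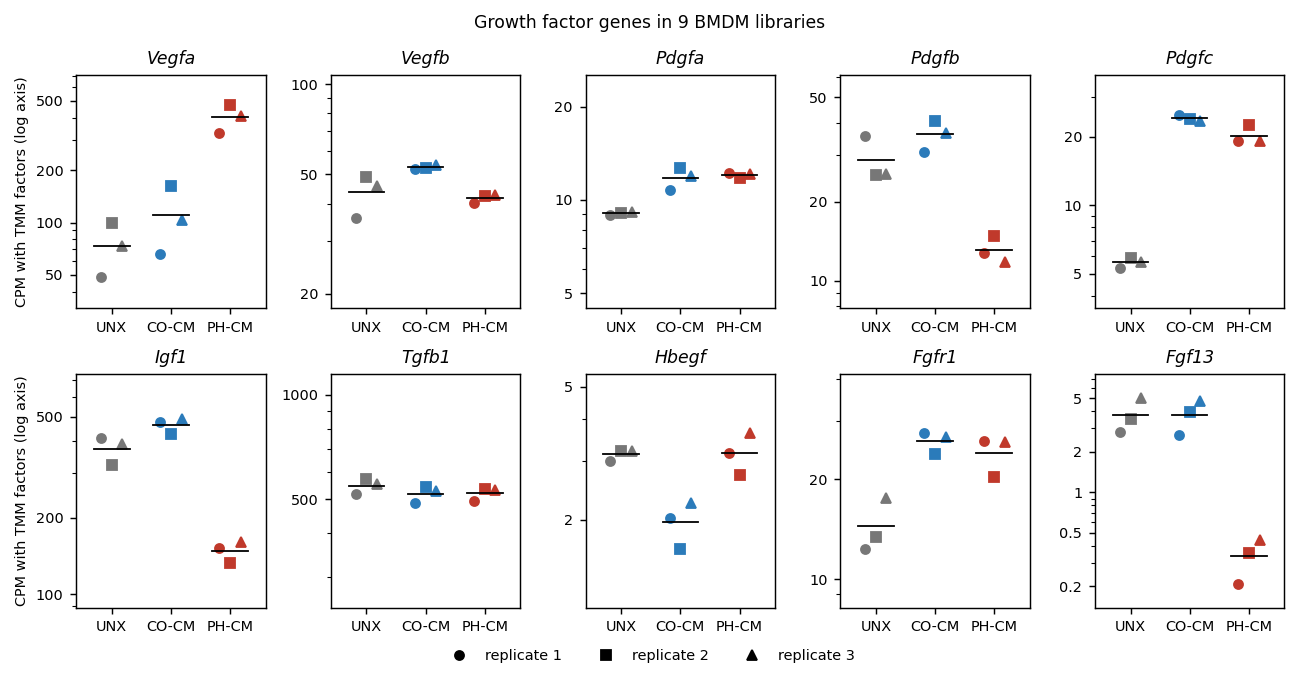
CPM with TMM factors (log axis) of the 10 genes in each of the 9 libraries, grouped as UNX (grey), CO-CM (blue) and PH-CM (red), with the symbol showing the replicate number and the line the mean of 3. Vegfa lies highest and Igf1, Pdgfb and Fgf13 lowest in PH-CM without overlap with the other groups, while Pdgfc rises from about 5.61 to above 19 CPM in both media.

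Counted together, 7 of the 10 genes were called in PH-CM against UNX, 4 higher and 3 lower, where 63.0% of all genes tested were called, 31.3% higher and 31.7% lower. In CO-CM against UNX 6 were called, 5 higher and 1 lower, beside 57.0% of all genes, 28.0% higher and 28.9% lower. Between the media 6 were called, 2 higher and 4 lower in PH-CM, beside 27.1% of all genes, 12.2% higher and 15.0% lower. The counts against UNX were thus close to the background, and that between the media was above it without a test of the difference. The libraries of the groups did not overlap for 7, 6 and 7 of the genes, beside 77.7%, 72.0% and 50.2% of all genes.

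In size, the median absolute log2 fold change of the 10 genes was 0.93 in PH-CM against UNX, 0.35 in CO-CM against UNX and 0.52 between the media, beside 0.43, 0.36 and 0.17 over all genes tested. The 3 comparisons share libraries, so their values for a gene are not independent. Scaling by library size alone or by upper quartiles moved the share of higher calls among all genes in CO-CM against UNX from 49.2% to 41.4% and 56.3%.

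**Figure D2:**
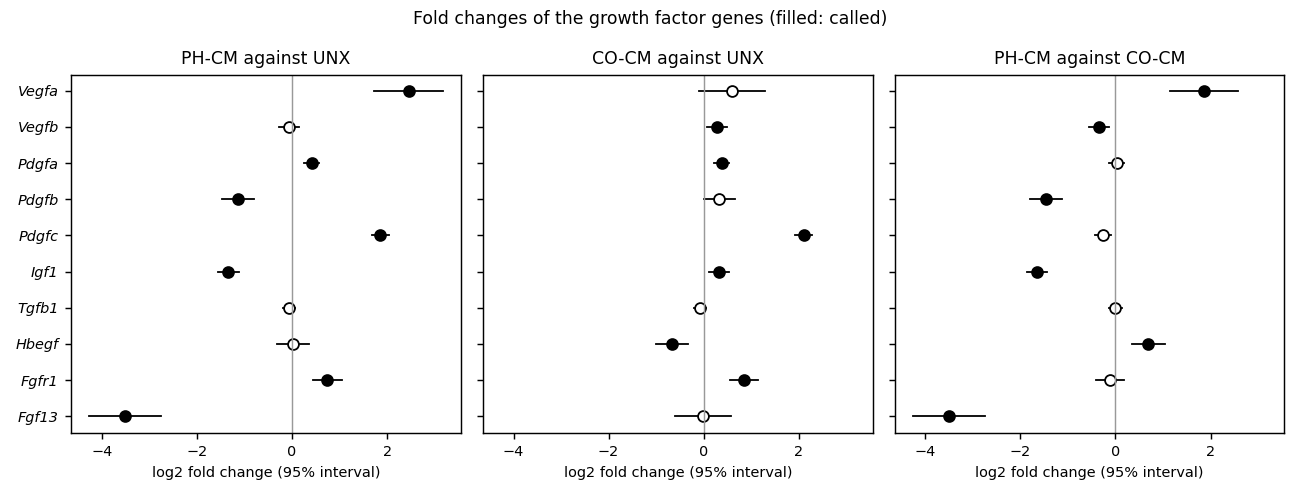
Log2 fold change of the 10 genes in the 3 comparisons, with the 95% interval as a line and filled points for called genes. Fgf13 lies farthest to the left in both comparisons with PH-CM, Vegfa and Pdgfc farthest to the right in PH-CM against UNX, and the Tgfb1 interval includes 0 in all 3.

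Vegfa, at chr17:46016993-46032369 on the minus strand of GRCm38, showed the largest rise among the ligands in PH-CM. Its level was 48.4, 99.0 and 73.4 CPM in the UNX libraries 1 to 3, 65.8, 162 and 104 CPM in CO-CM and 325, 473 and 412 CPM in PH-CM. Every PH-CM library lay above all 6 others, and UNX and CO-CM overlapped. Relative to UNX the level in PH-CM was 5.48-fold higher (log2 fold change 2.45, SE 0.33, FDR 5.71e-05), and relative to CO-CM it was 3.64-fold higher (1.87, SE 0.32, FDR 0.00119). In a bulk RNA sample, more RNA per cell and more cells expressing the gene cannot be told apart.

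With CO-CM, Vegfa differed from UNX by 0.59 on the log2 scale (SE 0.31, FDR 0.12, 95% interval -0.11 to 1.29) and was not called. Replicate 1 had the lowest level in each of the 3 groups. Libraries of one number shared such deviations across genes, and within a number CO-CM was 1.36, 1.63 and 1.42 times UNX. With the replicate number as a block the difference was 0.56 with an FDR of 0.000518 and was called. It was also called with no filter on low counts (0.55, FDR 0.00509), without the replicate 1 libraries (0.62, FDR 0.0203), without UNX replicate 2 (0.84) and without CO-CM replicate 1 (0.85). The PH-CM rise was present in each number, at 6.71, 4.78 and 5.62 times UNX.

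Promoter sequence was taken from RefSeq (GRCm38.p6), which held 7 of the 10 genes; Pdgfb, Fgfr1 and Hbegf were not among them. The 250 bases before the start (for Vegfa that nearest the 5′ end of the gene) are shown for Vegfa and Igf1, the ligands with the largest rise and the largest fall in PH-CM among the 10 genes, with motif matches in capitals. In all, 5 motifs were searched on both strands.

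Vegfa (chr17:46032378-46032627, minus strand): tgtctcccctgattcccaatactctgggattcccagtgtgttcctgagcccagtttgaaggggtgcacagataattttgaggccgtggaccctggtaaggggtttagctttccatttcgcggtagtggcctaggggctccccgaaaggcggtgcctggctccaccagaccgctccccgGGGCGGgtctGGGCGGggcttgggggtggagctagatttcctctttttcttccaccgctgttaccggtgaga
Igf1 (chr10:87860861-87861110, plus strand): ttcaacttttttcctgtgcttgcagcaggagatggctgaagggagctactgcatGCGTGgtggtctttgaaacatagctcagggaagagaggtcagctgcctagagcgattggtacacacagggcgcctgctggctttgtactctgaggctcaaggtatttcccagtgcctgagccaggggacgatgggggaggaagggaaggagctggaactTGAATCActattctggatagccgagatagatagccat

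The Vegfa window shown holds 2 matches to the GC box GGGCGG, starting 72 and 62 bases before the start, a motif present in 32.7% of 32851 promoter windows of the same length. It has no match to the hypoxia response core (ACGTG or GCGTG, in 38.6% of windows), to the AP-1 motif TGANTCA (6.75%), to the STAT motif TTCNNNGAA (7.02%) or to the TATA box TATAAA (12.4%). RefSeq also lists another Vegfa promoter, inside the gene at chr17:46025164-46025413, which holds 2 hypoxia response cores and 1 GC box. The bases after this promoter were not found in a transcript of the gene. The Igf1 window also lies inside the annotated span of its gene. It holds 1 hypoxia response core, 196 bases before the start, and 1 AP-1 motif, 37 bases before the start. None of the matches shown overlaps another, and these letters alone do not mark a bound site. Bases farther upstream were not searched, so a missing match holds for these windows only.

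Since Vegfa is a textbook target of the hypoxia-inducible factors, it was set beside 8 other such targets, Slc2a1, Pdk1, Bnip3, Egln3, Ankrd37, Ndrg1, Pgk1 and Ldha, which encode a glucose transporter, glycolytic and mitochondrial proteins and an oxygen-sensing hydroxylase. By edgeR's quasi-likelihood test 0 of the 8 were called in PH-CM against UNX, beside 63.0% of all genes tested. Of the 8, 0 had an unadjusted p under 0.05, and the median log2 fold change was -0.20 beside 2.45 for Vegfa. The exact test of edgeR called 2 of them, and DESeq2 and limma 0. All 8 targets, like Vegfa, had their lowest level in replicate 1 in UNX, in CO-CM and in PH-CM. With the replicate block, 5 of 8 were called, 2 higher and 3 lower, where 7714 of 11950 genes were called. Bnip3 and Egln3, named after their values were seen, were the higher ones, at 0.94 (FDR 6.25e-06) and 0.90 (FDR 2.38e-05).

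Between the media, 1 of the 8 targets was called, beside 27.1% of all genes. It was Ndrg1, which was lower in PH-CM (log2 fold change -1.04, SE 0.27, FDR 0.012). With the block 7 were called, 6 of them higher in PH-CM, where 3632 of 11950 genes were called. Egln3 was at 0.94 and Bnip3 at 0.88 beside 1.94 for Vegfa. In CO-CM against UNX 1 of 8 was called, Pgk1 (-0.62, SE 0.24, FDR 0.0396), beside 57.0% of all genes. With the block 5 were, 1 higher and 4 lower, while Vegfa was higher, where 7037 of 11950 genes were called. With no filter on low counts 4 targets were called in PH-CM against UNX, 5 in CO-CM against UNX and 6 between the media, 5 of the last higher in PH-CM. Without the replicate 1 libraries the counts were 3 for PH-CM against UNX, 5 for CO-CM against UNX and 3 between the media. Leaving out 1 library gave at most 2 called targets in each comparison, reached without UNX replicate 1 in both comparisons with UNX, without CO-CM replicate 2 in CO-CM against UNX and without CO-CM replicate 1 between the media, and 0 in CO-CM against UNX without UNX replicate 3 or CO-CM replicate 3.

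**Figure D3:**
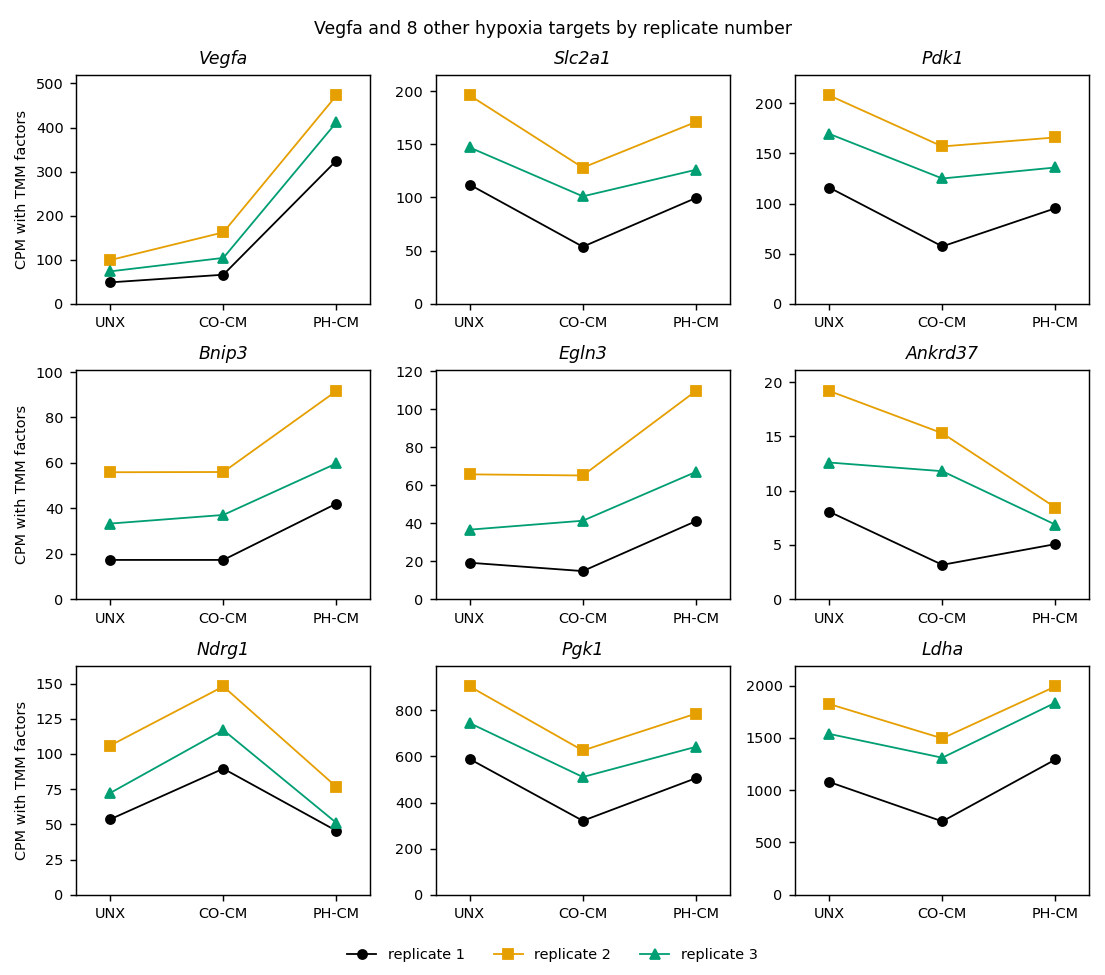
CPM with TMM factors of Vegfa and 8 other hypoxia targets in UNX, CO-CM and PH-CM, with a line for each replicate number. The line of replicate 1 is the lowest in all 9 panels, and Vegfa alone has a level in PH-CM several times that in UNX.

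Vegfb (chr19:6982473-6987651, minus strand) did not follow Vegfa. Its level was 35.9, 49.0 and 45.9 CPM in UNX, 52.3, 52.4 and 53.8 CPM in CO-CM and 40.2, 42.4 and 42.8 CPM in PH-CM. CO-CM libraries lay above all others, and UNX spanned the PH-CM range. The difference between PH-CM and UNX was -0.06 (FDR 0.558, 95% interval -0.27 to 0.15). Vegfb was 1.21-fold higher in CO-CM than in UNX (FDR 0.0227), a call just above the fold threshold that was lost without UNX replicate 1 (log2 fold change 0.14), without CO-CM replicate 3 (0.26) or without the replicate 1 libraries (0.15). It was also lost with library size alone, no filter on low counts, filterByExpr and both uses of limma, at 0.21 to 0.24. It was 1.26-fold lower in PH-CM than in CO-CM (FDR 0.0166), which was lost without CO-CM replicate 3 (-0.33, FDR 0.0521) or PH-CM replicate 1 (-0.30, FDR 0.0637).

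On a scale per length, RPKM (counted reads scaled to exon length and library total), Vegfa and Vegfb together reached 45.6 ± 9.86 in UNX, 57.5 ± 10.0 in CO-CM and 119 ± 16.5 in PH-CM (SD, n = 3). Vegfa made up 38.0% ± 4.79 of that sum in UNX, 42.6% ± 10.8 in CO-CM and 78.0% ± 2.78 in PH-CM. Vegfb was thus the larger of the pair in every UNX library, at 56.9% to 66.5%, larger by mean but not in every library in CO-CM (46.4% to 68.0%), and smaller in every PH-CM library. The other VEGF family ligands Vegfc, Vegfd and Pgf did not pass the filter, with means of at most 0.436 CPM.

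The VEGF receptors Kdr and Flt1 were measured in the same libraries and changed in opposite directions. Kdr was 37.0 ± 5.29 CPM in UNX, 17.9 ± 2.16 in CO-CM and 57.6 ± 4.87 in PH-CM, so it fell with CO-CM (log2 fold change -1.05, FDR 1.71e-05), rose with PH-CM (0.64, FDR 0.000415) and was higher in PH-CM than in CO-CM (1.69, FDR 2.91e-06). Flt1, the VEGF-B receptor that also binds VEGF-A, was 2.50, 6.44 and 1.13 CPM in the same order, up with CO-CM (1.36, FDR 2.81e-05) and down with PH-CM (-1.15, FDR 0.000158). Nrp1, the neuropilin that binds VEGF, fell from 528 ± 42.5 CPM to 319 ± 30.5 with CO-CM and 256 ± 9.76 with PH-CM (-0.73, FDR 1.3e-05, and -1.05, FDR 6.53e-07).

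The PDGF chains changed in composition, and their mean sum in RPKM was highest in CO-CM. Pdgfb (chr15:79995874-80014977, minus strand), whose dimer binds both PDGF receptors, was 35.5, 25.3 and 25.4 CPM in UNX, 30.9, 40.7 and 36.7 CPM in CO-CM and 12.7, 14.8 and 11.8 CPM in PH-CM. All PH-CM libraries lay below the other 6, and UNX and CO-CM overlapped through UNX replicate 1 and CO-CM replicate 1. Pdgfb was 2.19-fold lower in PH-CM than in UNX (log2 fold change -1.13, SE 0.15, FDR 5.14e-05) and 2.76-fold lower than in CO-CM (-1.46, SE 0.15, FDR 4.05e-05).

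CO-CM and UNX differed in Pdgfb by 0.33 (SE 0.14, FDR 0.0626), which was not called. Within replicate numbers the ratio was 0.871 in number 1 and 1.61 and 1.44 in numbers 2 and 3, so the direction was not shared. The replicate block gave 0.33 with an FDR of 0.0394, which was called, and leaving out the replicate 1 libraries gave 0.60 with an FDR of 0.000592. It was also called without UNX replicate 1 (0.49) or without CO-CM replicate 1 (0.43), by DESeq2 (FDR 0.0346), with upper-quartile factors (0.40) and with no filter on low counts (0.29).

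Pdgfc (chr3:81036416-81214040, plus strand), a chain secreted as a latent dimer that acts mainly through Pdgfra, was 5.32, 5.86 and 5.66 CPM in UNX, 25.0, 24.0 and 23.4 CPM in CO-CM and 19.1, 22.5 and 19.1 CPM in PH-CM. Both treated groups lay above UNX with a wide gap, and CO-CM lay just above PH-CM. Pdgfc was 4.30-fold higher with CO-CM (log2 fold change 2.10, SE 0.081, FDR 1.28e-08) and 3.59-fold higher with PH-CM (1.85, SE 0.081, FDR 1.48e-08). Between the media the difference was -0.26 (FDR 0.0213), with a fold just under the threshold of 1.2, so it was not called; it was called without CO-CM replicate 3 (-0.28) or PH-CM replicate 2 (-0.34), by DESeq2 or with its size factors, with upper-quartile factors (-0.30), with filterByExpr and with no fold threshold.

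Pdgfa (chr5:138976014-138997370, minus strand), whose homodimer binds Pdgfra, was 8.95 to 9.15 CPM in UNX, 10.8 to 12.7 in CO-CM and 11.8 to 12.2 in PH-CM. Both treated groups lay above UNX and overlapped each other. The rise was 1.33-fold with PH-CM (log2 fold change 0.41, SE 0.073, FDR 0.000445) and 1.30-fold with CO-CM (0.38, SE 0.073, FDR 0.000868), and the media differed by 0.03 (FDR 0.773, 95% interval -0.13 to 0.19). The antisense gene 6330403L08Rik shares 813 of the 3119 exon bases of Pdgfa and had 6743 reads beside 6812 for Pdgfa. It was also higher with PH-CM (0.57, FDR 0.000216) and with CO-CM (0.36, FDR 0.00498). The counting parameters listed in the methods include no strand option. How reads in the shared bases were assigned between the 2 genes was not tested.

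In RPKM the sum of the PDGF chains was 14.3 ± 2.19 in UNX, 20.5 ± 1.47 in CO-CM and 12.2 ± 0.759 in PH-CM (SD, n = 3). Pdgfb made up 70.6% ± 4.38 of it in UNX, 58.9% ± 2.88 in CO-CM and 36.2% ± 1.78 in PH-CM. Pdgfc went the other way, from 8.07% ± 1.38 to 22.8% ± 2.71 and 32.0% ± 1.01. In PH-CM the 3 chains were near equal, with Pdgfa at 31.3% ± 2.52, and the library ranges of Pdgfb and Pdgfc and of Pdgfc and Pdgfa overlapped. Pdgfd, the other chain, did not pass the filter and held at most 0.682% of the sum in any library. The receptors Pdgfra and Pdgfrb, markers of fibroblasts, had means of 1.76 to 2.53 and 3.90 to 4.35 CPM.

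**Figure D4:**
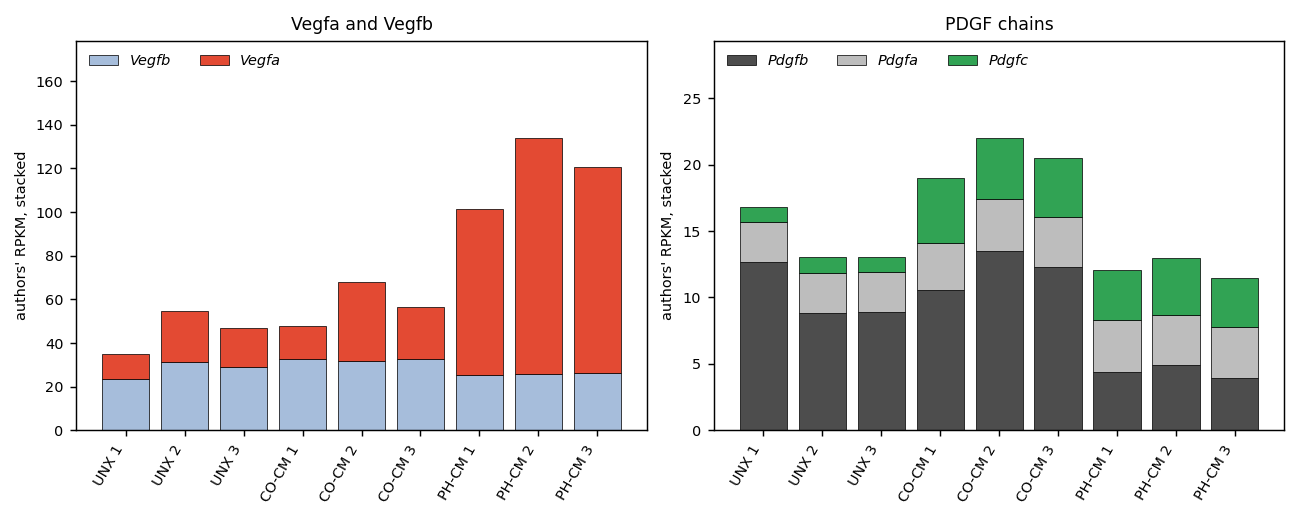
The authors' RPKM of Vegfb and Vegfa (left) and of Pdgfb, Pdgfa and Pdgfc (right), stacked for each of the 9 libraries. The Vegfa part dominates the sum in the 3 PH-CM libraries, and the Pdgfb part shrinks from 70.6% of the PDGF sum in UNX to 36.2% in PH-CM while the Pdgfc part grows.

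Igf1 (chr10:87858265-87937042, plus strand) was the second most expressed of the genes in UNX on the RPKM scale. Its level was 411, 323 and 389.8 CPM in UNX, 478, 429 and 490.2 CPM in CO-CM and 152, 133 and 161 CPM in PH-CM. The 3 groups did not overlap, with PH-CM far below and CO-CM a little above UNX. Igf1 was 2.53-fold lower in PH-CM than in UNX (log2 fold change -1.34, SE 0.099, FDR 6.74e-07) and 3.14-fold lower than in CO-CM (-1.65, SE 0.1, FDR 1.26e-06). Within replicate numbers the fall from UNX was 2.43- to 2.71-fold. The rise with CO-CM was 1.24-fold (0.31, FDR 0.0146), and this call was lost without UNX replicate 2 (0.20, FDR 0.0669) or CO-CM replicate 3 (0.28, FDR 0.0506), with library size alone (0.24, FDR 0.0571) and with both uses of limma (0.24 and 0.25).

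The receptor and binding proteins of IGF-1 changed as well. Igf1r, named after its values were seen, was 15.7 ± 0.526 CPM in UNX, 21.0 ± 1.30 in CO-CM and 27.6 ± 0.946 in PH-CM, up in both (log2 fold change 0.42 and 0.81). Igfbp4, the IGF carrier with the highest RPKM, fell from 304 ± 38.2 CPM to 105 ± 2.76 with CO-CM (-1.54, SE 0.085, FDR 1.21e-07) and to 211 ± 14.6 with PH-CM (-0.53, FDR 0.000195). Igfbp5 was near the detection limit in UNX and CO-CM, at 0.0906 and 0.0973 CPM, and 2.16 ± 0.0880 CPM in PH-CM, through which alone it passed the filter. Of the other IGF ligand, Igf2, there were 8 reads in all libraries.

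Tgfb1 (chr7:25687002-25705077, plus strand) had the highest RPKM of the genes in every group, at 112, 101 and 102 in UNX, CO-CM and PH-CM. Its level was 517, 573 and 554 CPM in UNX, 488, 542 and 529 CPM in CO-CM and 496, 535 and 532 CPM in PH-CM. The groups overlapped, and replicate 1 was again lowest in each. The log2 fold change was -0.07 with PH-CM (FDR 0.275, 95% interval -0.20 to 0.06) and -0.08 with CO-CM (FDR 0.262, interval -0.21 to 0.05), and 0.00 between the media (FDR 0.972, interval -0.13 to 0.13), so changes beyond 1.2-fold lay outside the intervals. Within replicate numbers PH-CM was 0.932 to 0.961 times UNX, and CO-CM 0.944 to 0.955 times UNX. With the replicate block the FDR was 0.045 with PH-CM and 0.0382 with CO-CM, but neither change reached 1.2-fold, so neither was called.

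Some of the genes around TGF-beta 1 did change. Among its relatives, Inhba, which encodes the activin A subunit, rose from 4.28 ± 0.554 CPM to 6.67 ± 1.66 with CO-CM (log2 fold change 0.64, FDR 0.00624) and 19.5 ± 1.86 with PH-CM (2.19, SE 0.17, FDR 8.56e-07). Tgfb3 rose with PH-CM from 1.64 ± 0.317 to 5.00 ± 2.15 (1.61, SE 0.28, FDR 0.000404), while Gdf15 fell with PH-CM (-2.00, FDR 6.88e-06) and with CO-CM (-2.10, FDR 6.47e-06). Tgfbr1, the type I receptor, rose from 84.7 ± 4.14 CPM to 207 ± 21.1 with CO-CM (1.29, FDR 3.12e-07) and 144 ± 12.3 with PH-CM (0.77, FDR 1.01e-05). Thbs1, which encodes thrombospondin-1, a protein known to release TGF-beta from its latent complex, went from 68.7 ± 13.3 CPM to 8142 ± 685 with PH-CM and to 162 ± 40.4 with CO-CM (6.89, FDR 2.12e-09, and 1.24, FDR 0.000116). Of 6 other TGF-beta superfamily ligands tested, 3 were higher and 2 lower with PH-CM, and 2 and 2 with CO-CM. Of all genes, 63.0% and 57.0% were called. Inhbb, among the lower ones, passed the filter through UNX alone. Tgfb2, Tgfbr2, Tgfbr3 and Nrros, named after their values were seen, were not called with PH-CM, at 0.13, 0.26, 0.12 and -0.00. Tgfbr2 (FDR 0.000482) missed the call by its fold alone.

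Of 11 genes for SMADs, feedback proteins and targets of TGF-beta, 7 were higher and 0 lower with PH-CM (median log2 fold change 0.59), beside 63.0% of all genes called, 31.3% higher. With CO-CM 4 were higher and 3 lower (median 0.13), beside 57.0% of all genes called. Between the media 4 were higher and 0 lower in PH-CM (0.27), beside 27.1% of all genes, 12.2% higher. The median over all genes tested was 0.01, 0.00 and -0.01. Smad2 and Smad7, named after their values were seen, were not called with PH-CM (-0.25, FDR 0.000278, and 0.32, FDR 0.0656). Smad2 missed the call by its fold alone. With library size alone, no filter on low counts, filterByExpr or no fold threshold, 1 of the 11 was lower with PH-CM. Between the media 1 was lower with the replicate block, edgeR's exact test or no filter. Pmepa1 and Skil, feedback regulators of SMAD signaling, rose with PH-CM by 1.95 (FDR 0.000205) and 1.63 (FDR 0.000392) on the log2 scale, and both also rose with CO-CM, Pmepa1 from 1.32 ± 0.366 to 2.83 ± 1.04 CPM (FDR 0.00938) and Skil by 1.36 (FDR 0.00147). These genes also answer to other signals, and the RNA level of Tgfb1 does not measure the active protein.

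Hbegf (chr18:36504927-36515805, minus strand) was lower in CO-CM than in both other groups. It was expressed at a low level, 2.99, 3.21 and 3.21 CPM in UNX, 2.02, 1.64 and 2.25 CPM in CO-CM and 3.18, 2.73 and 3.63 CPM in PH-CM, on 110 to 276 reads per library. CO-CM libraries lay below all others, and PH-CM spanned the UNX range. Hbegf was 1.59-fold lower in CO-CM than in UNX (log2 fold change -0.67, SE 0.15, FDR 0.00273) and 1.62-fold higher in PH-CM than in CO-CM (0.69, SE 0.15, FDR 0.00551), with an interval of -0.31 to 0.35 for PH-CM against UNX (FDR 0.911).

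Its receptor Egfr rose with PH-CM from 1.25 ± 0.145 to 3.17 ± 0.343 CPM (log2 fold change 1.34, FDR 3.63e-05). Cd9, a tetraspanin known to associate with the HB-EGF precursor, was 372 ± 48.2 CPM in UNX, 592 ± 92.8 in CO-CM and 259 ± 11.5 in PH-CM, so it rose with CO-CM (0.67, FDR 0.000494), fell with PH-CM (-0.52, FDR 0.00214) and differed between the media (-1.19, FDR 3.47e-05). Of the 10 other EGF family ligands 2 passed the filter, Nrg1 and Nrg4, neither above 1 CPM in every library. Nrg1 was 0.307 CPM in UNX, 0.300 in CO-CM and 1.33 ± 0.192 in PH-CM (2.07, FDR 5.35e-05), and passed the filter through PH-CM alone.

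Fgfr1 (chr8:25513654-25575718, plus strand), the FGF receptor with the highest RPKM in these cells, was 12.3, 13.4 and 17.6 CPM in UNX, 27.6, 23.9 and 26.8 CPM in CO-CM and 26.0, 20.3 and 25.9 CPM in PH-CM. Both treated groups lay above UNX and overlapped each other. The rise was 1.80-fold with CO-CM (log2 fold change 0.85, SE 0.14, FDR 0.000252) and 1.66-fold with PH-CM (0.73, SE 0.14, FDR 0.000597), and the media differed by -0.12 (FDR 0.534, 95% interval -0.41 to 0.18). Fgfr2, Fgfr3 and Fgfr4 did not pass the filter, with means of at most 0.267 CPM.

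Fgf13 (chrX:59062145-59568071, minus strand) showed the largest fold change of the 10 genes. It had 184, 266 and 434 reads in UNX, 182, 264 and 339 in CO-CM and 14, 22 and 28 in PH-CM, which correspond to 2.83, 3.52 and 5.04 CPM, 2.66, 3.94 and 4.76 CPM, and 0.208, 0.354 and 0.443 CPM. PH-CM libraries lay far below the others, and UNX and CO-CM overlapped almost fully, with replicate 1 lowest in each group. Fgf13 was 11.4-fold lower in PH-CM than in UNX (log2 fold change -3.51, SE 0.34, FDR 5.23e-06) and 11.3-fold lower than in CO-CM (-3.50, SE 0.34, FDR 2.99e-05). It passed the filter through UNX and CO-CM alone, so a gene at its PH-CM level throughout would not have been tested. CO-CM and UNX differed by -0.01 (FDR 0.976, interval -0.60 to 0.58).

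Of the 21 other FGF genes 3 passed the filter, Fgf2, Fgf7 and Fgf11, at low levels. All 3 were called higher with PH-CM, beside 31.3% of all genes tested. Since Fgf2 and Fgf7 were not above 1 CPM in every UNX library and passed mainly through treated cells, this count is partly fixed by the filter. Fgf7, a fibroblast-type factor that acts on epithelium, was 0.588 ± 0.130 CPM in UNX, 1.02 ± 0.0623 in CO-CM and 1.69 ± 0.194 in PH-CM (log2 fold change 1.52, SE 0.2, FDR 4.37e-05). Without the replicate 1 libraries, where the filter was applied anew, 1 of the 3 was called. The part of the filter in this fall was not tested.

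The order of the genes by RPKM differed between the groups. In UNX it ran from Tgfb1 at 112 over Igf1 at 39.0, Vegfb at 28.0, Vegfa at 17.6, Pdgfb at 10.2, Pdgfa at 2.99, Fgfr1 at 1.51, Hbegf at 1.36 and Pdgfc at 1.14 to Fgf13 at 0.972. The neighbours Vegfb and Vegfa, Vegfa and Pdgfb, Fgfr1 and Hbegf, and Pdgfc and Fgf13 overlapped between libraries. In PH-CM Vegfa, at 93.0, came next to Tgfb1 and overlapped it, followed by Vegfb at 25.8 and Igf1 at 14.8, and Fgf13 was last at 0.0822. In CO-CM the order of the first 5 genes was that of UNX, with Pdgfc, at 4.66, now above Pdgfa at 3.71.

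Other ligands for vessels and fibroblasts, from a list drawn up from general knowledge, were also counted. Of 53 further ligand genes 17 passed the filter. With PH-CM 12 were higher, 3 lower and 2 not called (median log2 fold change 0.92), beside 63.0% of all genes called, 31.3% higher. With CO-CM 5 were higher, 4 lower and 8 not called (median 0.00), near the 57.0% of all genes called. Between the media 9 were higher and 0 lower in PH-CM (0.66), beside 27.1% of all genes, 12.2% higher. Of the 17, 6 were not above 1 CPM in every library, Nrg1, Nrg4, Fgf2, Fgf7, Inhbb and Adm, so the filter partly set these counts. Without the replicate 1 libraries, where the filter was applied anew, 9 were higher and 2 lower with PH-CM. Nrg1 and Inhbb, which had each passed through a single group, were then not tested. Hgf, the hepatocyte growth factor, rose alike in both, from 8.40 ± 0.832 CPM to 39.9 ± 2.64 with CO-CM and 40.4 ± 1.67 with PH-CM. Osm, which encodes oncostatin M, went from 12.0 ± 2.24 to 36.3 ± 9.14 CPM with PH-CM (1.59, SE 0.2, FDR 3.85e-05) and was 11.8 ± 2.00 with CO-CM. Ctgf, a matricellular factor for fibroblasts, rose with PH-CM by 1.40 (SE 0.16, FDR 1.4e-05) and with CO-CM by 0.57 (FDR 0.0076).

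**Figure D5:**
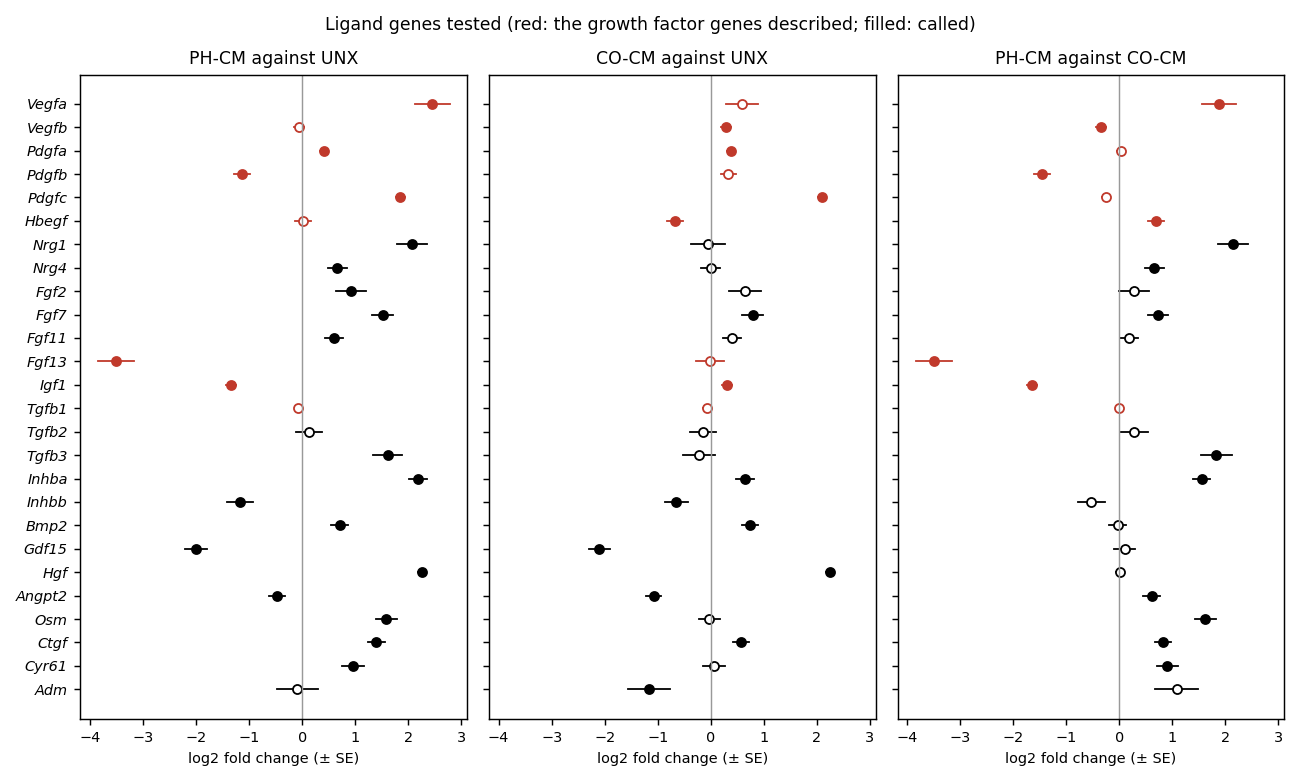
Log2 fold change (± SE) of the ligand genes that passed the filter, with the genes described above in red, the others in black and filled points for called genes. With PH-CM 12 of the 17 black points are called to the right of 0 and 3 to the left, and with CO-CM 5 and 4. Of all genes tested, 63.0% were called with PH-CM and 57.0% with CO-CM.

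Receptors and processing genes were counted in the same way. Of 17 further receptor genes tested, 8 were higher and 4 lower with PH-CM, and 5 and 4 with CO-CM. These called shares were near the 63.0% and 57.0% of all genes. Between the media 4 were higher and 4 lower in PH-CM, beside 27.1% of all genes. Of 22 carriers, latency proteins and proteases, 15 were higher and 4 lower with PH-CM (median log2 fold change 0.80). With CO-CM 12 were higher and 3 lower (0.51). Of all genes, 63.0% were called with PH-CM and 57.0% with CO-CM. Of the 22, 3 were above 1 CPM in every library only in PH-CM, so the filter partly set these counts. Between the media 8 were higher and 3 lower in PH-CM, beside 27.1% of all genes. The total of 11 was 7 without CO-CM replicate 2, without PH-CM replicate 1 or without PH-CM replicate 3. The filter was applied anew each time, so Igfbp5 was not tested without a PH-CM library. Plau, the urokinase that activates plasminogen and through it several latent factors, fell from 808 ± 109 CPM to 120.3 ± 52.7 with CO-CM and 32.3 ± 2.88 with PH-CM (-2.75, FDR 8.69e-06, and -4.65, FDR 2.51e-07).

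For each of the genes the 3 tested genes with the most similar pattern were found, by the root mean square difference of log2 CPM after centring over the 9 libraries. For Vegfa these were Gm20560, Fcgr4 and Fos, at 0.25 to 0.28, with Fos at 44.7, 51.3 and 172 CPM in UNX, CO-CM and PH-CM. Gm20560 was at 0.206, 0.253 and 1.34 CPM and passed the filter through PH-CM alone. For Igf1 the nearest genes were Myo1e, at 0.11, Sh2d6 and Pparg, with Pparg at 31.9, 39.3 and 13.1 CPM. Fgf13 was nearest to Lpl, at 0.24, which went from 1958 CPM in UNX to 163 in PH-CM, and Efr3b was also among its 3. Pdgfc was nearest to Ctsh, at 0.10, Mfsd7a and Kifc2, and Pdgfb to Fzd7, at 0.20, P2ry10b and Syne2. For Tgfb1, Vegfb, Pdgfa, Hbegf and Fgfr1 the nearest genes were Abhd16a, Steap3, Tbc1d23, Gcsh and Chchd10, at 0.01 to 0.13.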

How the data were processed

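RNA-Seq libraries of 9 BMDM cultures were assigned to UNX, CO-CM and PH-CM from their labels, 3 in each. Per the labels and methods, the authors trimmed the reads with AfterQC, aligned them to GRCm38 (Ensembl annotation) with STAR, counted reads on exons with featureCounts 1.6.2 and deposited whole, unnormalized read counts per gene. The authors also deposited RPKM values, the counts scaled to exon length and library total, without a factor for composition. The counting parameters listed in the methods include no option for strand or read pairs. Of counts below 20, 81.4% to 83.8% were even. Mates were therefore taken to be counted singly, so a count holds fewer independent fragments than reads. The deposited comparison tables (log2 fold changes, mean log2 CPM, p-values and FDR of the authors) were not used.

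The analysis used edgeR 4.0.16 under R 4.3.3. Genes needed more than 1 CPM in 3 or more libraries and were scaled by TMM and tested with the quasi-likelihood test in 1 fit of all 9 libraries; FDR is the Benjamini-Hochberg value over all genes tested, and calls need an FDR no higher than 0.05 and a change of 1.2-fold or more. The 95% intervals use edgeR's degrees of freedom. The fit was tested on simulated data. Levels between genes were compared in RPKM. Positions come from a GENCODE annotation of GRCm38, and 53274 of 53465 identifiers matched the reference names. Alternatives were other tests (edgeR's exact test, DESeq2 1.42.0, limma 3.58.1 on log2 of RPKM plus 0.1 or 1), scalings, filters and fold thresholds, halved counts, the replicate number as a block, and each library left out; leaving out all libraries labelled replicate 1 was added after seeing the data. With libraries left out, the filter was applied anew to those that remained. Libraries of 1 group differed by more than sampling noise (chi-square per gene of at least 8.206).

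Deviations from group means correlated in each of 9 pairs of libraries with the same replicate number (r from 0.276 to 0.484) and less in the 18 other pairs between groups (-0.376 to 0.042), which was read as pairing by number. The methods state that the experiment was repeated, but no label ties a number to a repeat. The 10 genes and the gene lists were chosen with earlier results of these data known. Named are the 10 genes, from each list up to 4 genes per comparison called at a fold change of at least 2 with the largest change, and for each of the 10 genes the 3 with the nearest pattern; other names are marked, and some genes that this rule selects are not reported here.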

Additional observations from a re-analysis of the deposited data

How the results depend on the processing

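Counting error is small for most of the genes, and the spread between 3 cultures per group sets the precision; Hbegf and, in PH-CM, Fgf13 rest on the fewest reads. Over 21 alternatives per comparison, 562 of the log2 fold changes of the 10 genes kept their direction and side of the threshold, 25 fell below it, 19 came to pass it and 24 changed sign. None of the changes of sign concerned a called difference, and the cause of each was not tested. The replicate block called 7714, 7037 and 3632 genes in PH-CM against UNX, CO-CM against UNX and PH-CM against CO-CM and changed no call of the 10 genes other than those of Vegfa and Pdgfb in CO-CM against UNX.

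A fold threshold of 2, which by its construction calls fewer genes, left 2153, 1655 and 612 genes in the same order, and 1 of the 10 genes in CO-CM against UNX. There limma on log2(RPKM + 1) called 3, and its pseudocount shrank the PH-CM change of Fgf13 to -0.86 against UNX. With library size alone, no filter, filterByExpr and limma with 0.1 or 1 added, Hbegf in PH-CM against UNX was -0.04, -0.02, -0.02, -0.04 and -0.02, and -0.08 to 0.12 with libraries left out. Vegfb in that comparison ranged from -0.19 to 0.02 with libraries left out. Fgf13 in CO-CM against UNX was 0.06 with upper-quartile factors and -0.21 to 0.23 with libraries left out. Between the media Tgfb1 was -0.00 with both uses of DESeq2, no filter and filterByExpr, -0.03 with upper-quartile factors and -0.04 to 0.05 with libraries left out, and Pdgfa was -0.01 with upper-quartile factors and -0.03 to 0.08 with libraries left out.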
